A study of Mus musculus with 18 samples.

Results

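Bone marrow-derived macrophages that lack KLF3 were compared with wild-type macrophages after both had been given lipopolysaccharide (LPS). The comparison rests on 6 of the 18 arrays of the study, chosen by the genotype and treatment in the sample titles: 3 of Klf3 knockout (KO) cells after 8 h of LPS at 100 ng/mL and 3 of wild-type (WT) cells after the same treatment. Both groups came from the marrow of male FVB/NJ mice aged 10 to 14 weeks, grown for 7 to 10 days with medium conditioned by L929 cells, which secrete the macrophage growth factor M-CSF. That medium was exchanged for one without the conditioned part when LPS was added, so KO and WT cells alike met LPS without added M-CSF. The other 12 arrays were 3 each of KO and WT cells before treatment (0 h) and of both genotypes 8 h after the vehicle, phosphate-buffered saline, and they entered the fit and are quoted beside the LPS values. The labels do not say how the Klf3 allele was made, whether it was lost in the whole animal, or whether the 3 arrays of a group came from separate mice or cultures. The p-values therefore measure the spread within groups, pooled over all 18 arrays, which may be technical.

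KLF3 belongs to the Krüppel-like factors, DNA-binding proteins with zinc fingers. It binds CACCC and GC-rich sequences and is known mainly as a repressor, acting through the C-terminal binding protein corepressors. LPS, the endotoxin of Gram-negative bacteria, is sensed on macrophages by TLR4 together with CD14 and MD-2. The adaptors MyD88 and TRIF pass the signal to NF-kB, to MAP kinases and to interferon regulatory factors, which switch on cytokine and chemokine genes within hours, followed by genes that limit the response. The comparison asks which transcripts of LPS-treated macrophages depend on the genotype.

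The array carried 6 probe sets for Klf3, 3 of which were lower in KO cells after LPS. Probe set 1421604_PM_a_at gave an intensity of 9.08, 6.83 and 8.44 in KO arrays, against 294, 134 and 141 in WT arrays. All KO values of this probe set lay under the nonspecific control level, the 95th percentile of 23 control probe sets that match no transcript, which ran from 15.1 to 19.1 in KO arrays and from 14.9 to 23.2 in WT arrays. Against that level it was at least 10.5-fold lower in KO cells (limma, adjusted p = 8.93e-06 over all 45037 probe sets, of which 3.83% passed). Probe set 1454666_PM_at, which stood for Klf3 among the tested genes, gave 132, 105 and 109 in KO arrays, against 704, 457 and 538 in WT arrays, and 1429360_PM_at gave 44.3, 36.7 and 46.7 in KO arrays, against 349.9, 303 and 281 in WT arrays. These probe sets were 4.86-fold and 7.32-fold lower in KO cells, with no overlap between the groups. The other 3, 1431630_PM_a_at, 1441200_PM_at and 1442920_PM_at, differed by 0.24, -0.58 and -0.05 on the log2 scale (adjusted p = 0.787, 0.161 and 0.928). The labels do not give the deleted part of the gene, so a probe set outside it checks nothing, and none of the 6 LPS arrays went against its genotype label at the 3 probe sets that fell.

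All intensities in the text are linear values after quantile normalization, in arbitrary units, given for arrays 1, 2 and 3 of a group. They compare arrays for 1 probe set and do not rank different genes by abundance. Differences are KO minus WT on the log2 scale with the standard error of the limma fit, and adjusted p is Benjamini-Hochberg over 17097 genes. The arrays held the signature of macrophages: all 15 measured macrophage markers lay above the nonspecific level in all 6 arrays. The RNA was that of whole cultures, so fewer cells of a type and less RNA per cell cannot be told apart. The upper quartile of deposited intensity was 89.8 ± 15.7 in KO and 71 ± 4.54 in WT arrays (SD, n = 3 each; exact permutation p = 0.1, two-sided, the smallest that 3 against 3 allows). WT arrays spread more. The standard deviation of an array from its group mean over all genes was 0.226 ± 0.00793 in KO and 0.304 ± 0.0305 in WT arrays on the log2 scale, with no overlap (exact permutation p = 0.1), and the spread was larger in WT cells for 64.1% of genes. On the second principal component of the 6 arrays, which held 25.7% of the variance, WT array 1 lay at 42.2, WT arrays 2 and 3 at -18.7 and -28.1, and the KO arrays between -1.57 and 4.86. The first component, with 37.4%, put the KO arrays at 18.7 to 31.8 and the WT arrays at -35.8 to -13.7. The 5' minus 3' signal of the Gapdh control, a measure of RNA integrity and labelling, was -0.46, -0.556 and -0.392 in KO arrays and -0.066, -0.497 and -0.746 in WT arrays (log2; exact permutation p = 0.9), and its part in the spread of WT arrays was not tested.

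After LPS, 1020 of 17097 genes (5.97%) differed between KO and WT cells, 482 higher in KO cells (2.82%) and 538 lower (3.15%). Of these, 186 were at least 2-fold higher and 171 at least 2-fold lower. The median difference over all genes was -0.0182. In 974 of the 1020 genes the 3 KO arrays did not overlap the 3 WT arrays, which was so for 3156 genes in all (18.5%), 8.39% higher and 10.1% lower. In 59 of the higher genes no WT array lay above the nonspecific level, and in 55 of the lower genes no KO array did. The fit borrows its estimate of spread from all 18 arrays. WT LPS arrays lay 0.277 to 0.337 from their group mean, and arrays at 0 h and after vehicle 0.165 to 0.266. Standard errors after LPS may therefore understate the spread of WT arrays. When only the 6 LPS arrays were fitted, 89 genes passed, 46 higher and 43 lower, and 88 of them were among the 1020. Without WT array 2 the count was 660, and without KO array 2 it was 613. The balance of directions also moved with the scaling, from 47.3% of calls higher in KO cells to 68.6% with arrays shifted to 1 median, 86.4% with equal hybridisation controls and 90.6% with the deposited values, where the median of all genes was 0.072, 0.335 and 0.29.

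**Figure D1:**
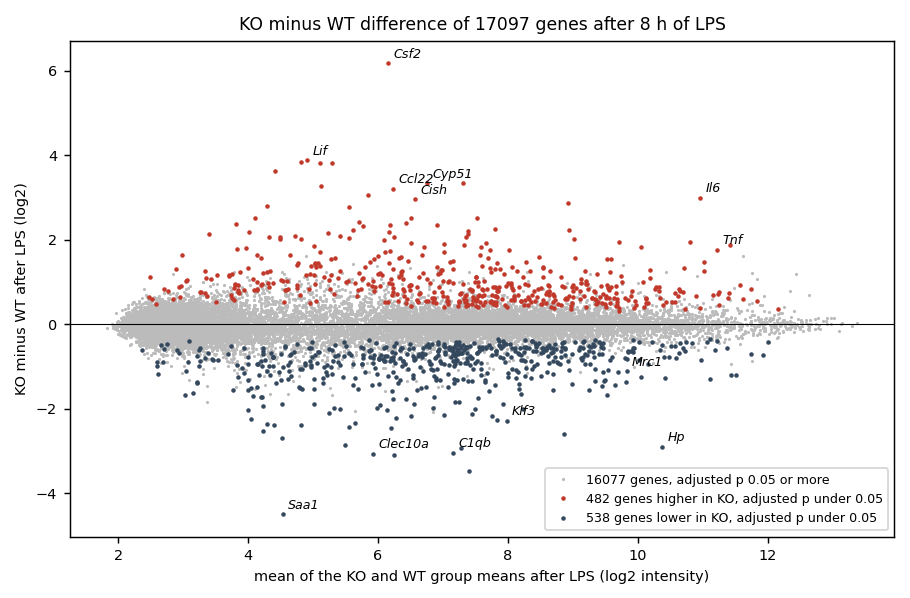
KO minus WT difference after LPS (log2, vertical axis) against the mean of the KO and WT group means (log2 intensity, horizontal axis), 1 point per gene for 17097 genes. Red points are the 482 genes higher in KO cells and dark points the 538 lower, at adjusted p under 0.05, and Csf2 stands apart at 6.18.

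Markers of other cells differed between the groups as well. The summed intensity of 12 neutrophil markers was 667 to 840.5 in KO and 1164 to 1412 in WT arrays, and of 8 monocyte markers 710.1 to 879 in KO and 1802 to 2538 in WT arrays (exact permutation p = 0.1 for both). Of the neutrophil markers 7 were above the nonspecific level in no array, Mpo, Elane, Ngp and Ltf among them, 1 was higher, Mmp8, and 2 were lower, Csf3r and S100a8, the call of S100a8 being lost without WT array 2 or KO array 3 (adjusted p up to 0.0963). Ly6i, a monocyte surface marker gene, had 86.7, 48.8 and 55.4 in KO arrays, against 302, 284 and 235 in WT arrays (-2.14 ± 0.28, adjusted p = 0.000233). F13a1, the gene of coagulation factor XIII A, had 359.6, 433 and 481 in KO arrays, against 891, 1502 and 1183 in WT arrays (-1.47 ± 0.34, adjusted p = 0.0164), lost without WT array 2 or KO array 1 (adjusted p up to 0.0747). The 15 macrophage markers summed to 37436 to 39350 in KO and 44745 to 46815 in WT arrays, with 5 lower and 0 higher (exact permutation p = 0.1). Of 10 stem and progenitor markers 7 were never above the level, and their sum was 2882 to 3740.3 in KO and 944 to 2448 in WT arrays. Of 9 B and plasma cell markers 7 were never above it, with a sum of 1768 to 1944 in KO and 1193 to 1463 in WT arrays, and 0 passed. All 11 mast cell, basophil and eosinophil markers, 9 of 11 T and NK cell markers and 9 of 12 stromal markers were above the level in no array. The part of such cells in the differences described below was not tested.

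Fewer genes passed without LPS. After vehicle 0 of 17097 genes passed in the limma fit (0%), with 778 at an unadjusted p under 0.05, and between 0 and 37 genes passed under the alternative settings. Klf3 itself did not pass there, although it averaged 126 in KO and 455 in WT arrays (-1.92). The 0 therefore does not show that genotype differences were absent. In the limma fit over every probe set, the Klf3 probe sets that fell after LPS also passed after vehicle (adjusted p up to 0.044). At 0 h, 24 genes passed (0.14%), 19 higher and 5 lower, and 4 of them also passed after LPS, 3 in the same direction. The 482 genes that were higher in KO cells after LPS had a median difference of 0.873 after LPS, 0.052 after vehicle and 0.0136 at 0 h. The 538 lower genes had -0.794 after LPS, -0.0302 after vehicle and -0.000723 at 0 h. An interaction contrast, which subtracts the vehicle difference from the LPS difference, passed for 189 genes (1.11%). It uses the same 6 LPS arrays as the LPS difference, whereas the vehicle and 0 h differences come from other arrays.

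**Figure D2:**
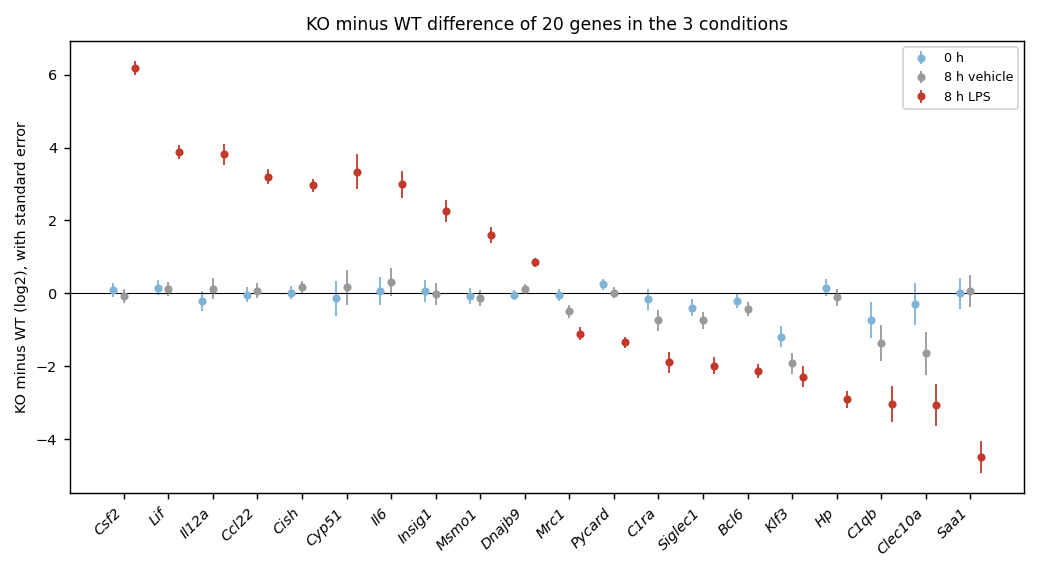
KO minus WT difference (log2, points, with the standard error of the fit as bars) of 20 genes at 0 h, after 8 h of vehicle and after 8 h of LPS, 3 KO and 3 WT arrays in each condition. Csf2 is at 0.10, -0.08 and 6.18 in that order, whereas Klf3 is at -1.18, -1.92 and -2.28.

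Csf2, the gene of GM-CSF, a growth factor of macrophages and granulocytes, stood farthest apart. It had an intensity of 481, 846 and 548 in KO arrays, against 10.0, 6.59 and 8.93 in WT arrays. No WT array lay above the nonspecific level and all KO arrays lay far above it, at least 34.2-fold (6.18 ± 0.19, adjusted p = 9.39e-12). Lif, which encodes leukemia inhibitory factor, a cytokine of the IL-6 family, had 108, 115 and 124 in KO arrays, against 8.41, 8.66 and 6.63 in WT arrays, at least 6.53-fold higher in KO cells (3.88 ± 0.20, adjusted p = 1.44e-08). Nr4a3, an immediate early orphan nuclear receptor gene, had 53.4, 143 and 161 in KO arrays, against 10.1, 5.85 and 6.97 in WT arrays, at least 6.04-fold higher (3.84 ± 0.33, adjusted p = 5.02e-06). KO array 1 was the dimmest of the KO arrays for each of these genes and was still brighter than every WT array. Adamts4, which encodes a protease of matrix proteoglycans, had 93.8, 185 and 183 in KO arrays, against 13.8, 8.32 and 9.75 in WT arrays (at least 8.29-fold, adjusted p = 1.66e-07).

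Of the other genes among the 15 with the largest KO minus WT difference, those for cytokines and chemokines, Cish and Cyp51 are described with their lists below. Havcr2, the gene of the inhibitory receptor TIM-3, had 117, 105 and 104 in KO arrays, against 26.1, 4.31 and 12.8 in WT arrays (3.26 ± 0.48, adjusted p = 0.000649). Only WT array 1 of Havcr2 lay above the nonspecific level, and the difference of Havcr2 was 2.56 once values were raised to it. After vehicle Havcr2 was brighter in both genotypes, with a mean of 165 in KO and 70.7 in WT arrays (difference 1.02). Its difference at 0 h was 0.74, and its interaction contrast in the limma fit did not pass (adjusted p = 0.155). Lad1, the gene of the anchoring filament protein ladinin, had 118, 209.7 and 186 in KO arrays, against 21.6, 13.8 and 26.9 in WT arrays (3.05 ± 0.22, adjusted p = 6.6e-07). Shisa3, whose product is known to hold back Wnt and FGF receptors, had 957, 1366 and 1729 in KO arrays, against 152, 128 and 295 in WT arrays (2.87 ± 0.33, adjusted p = 7.32e-05), and Macc1, known from studies of tumour cell motility, had 40.03, 54.1 and 62.04 in KO arrays, against 7.03, 7.40 and 7.83 in WT arrays (at least 2.89-fold, adjusted p = 1.66e-07). None of these genes overlapped between the groups. The call of Havcr2 ended when only the 6 LPS arrays were fitted, as did those of Cyp51 and Il6 among the 15 (adjusted p up to 0.0794), and the other 12 kept theirs there and under all 19 alternatives.

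**Figure D3:**
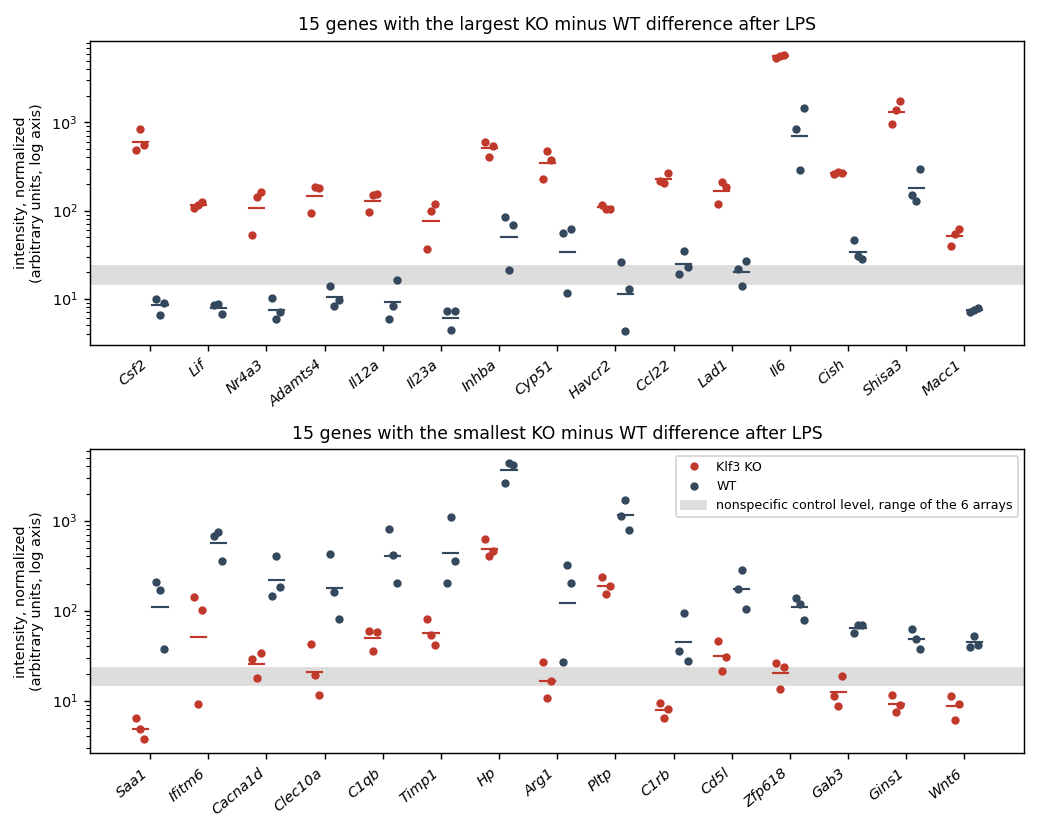
Normalized intensity (log axis, arbitrary units) of the 15 genes with the largest (top) and the 15 with the smallest (bottom, most negative) KO minus WT difference among genes past the threshold, 1 point per LPS array, KO left and WT right, with the mean of the log2 values as a line. The grey band is the nonspecific control level of the 6 arrays, 14.9 to 23.2, and the groups of each gene do not overlap.

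The stretch of 250 bases before the annotated transcription start is shown for Csf2, Lif, Nr4a3 and Saa1, which come first in the order of the fitted difference, because KLF3 binds CACCC boxes in promoters. That order draws on values under the nonspecific level. With values raised to it Lif (2.71) and Nr4a3 (2.59) lie below Inhba (3.34), and Saa1 (-2.71) falls less than Ifitm6 (-3.24). Sequences are from RefSeq on GRCm38.p6, read 5' to 3' on the strand of the gene, with every CACCC on either strand (CACCC or GGGTG) in capitals. The Csf2 window, chr11:54249900-54250149 on the minus strand, holds none, the Lif window, chr11:4257318-4257567 on the plus strand, holds 4, the Nr4a3 window, chr4:48045055-48045304 on the plus strand, holds 3, and the Saa1 window, chr7:46742981-46743230 on the minus strand, holds 2.
Csf2: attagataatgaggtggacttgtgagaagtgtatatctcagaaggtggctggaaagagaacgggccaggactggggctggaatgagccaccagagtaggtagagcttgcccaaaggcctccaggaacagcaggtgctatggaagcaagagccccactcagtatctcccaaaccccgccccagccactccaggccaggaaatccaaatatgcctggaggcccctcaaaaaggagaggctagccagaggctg
Lif: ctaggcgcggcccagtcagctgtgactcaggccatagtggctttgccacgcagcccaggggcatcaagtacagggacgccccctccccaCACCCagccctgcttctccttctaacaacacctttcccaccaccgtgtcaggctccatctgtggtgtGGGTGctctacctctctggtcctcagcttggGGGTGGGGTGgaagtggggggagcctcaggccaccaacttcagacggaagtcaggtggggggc
Nr4a3: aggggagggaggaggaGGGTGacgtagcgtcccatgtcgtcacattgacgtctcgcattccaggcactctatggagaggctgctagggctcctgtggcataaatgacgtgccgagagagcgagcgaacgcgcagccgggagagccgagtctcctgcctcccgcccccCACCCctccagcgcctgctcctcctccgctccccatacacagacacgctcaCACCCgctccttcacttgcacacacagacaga
Saa1: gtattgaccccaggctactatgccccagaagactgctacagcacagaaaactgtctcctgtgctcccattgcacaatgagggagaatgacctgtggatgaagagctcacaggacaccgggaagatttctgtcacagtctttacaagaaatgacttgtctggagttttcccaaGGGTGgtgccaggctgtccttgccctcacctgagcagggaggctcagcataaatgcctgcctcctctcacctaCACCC
Of 13605 tested genes with such a window, 56.9% held at least 1 CACCC box, against which the share was 58% of 379 genes higher in KO cells and 60.9% of 447 genes lower. Among genes that differed at least 2-fold it was 55.9% of 143 higher and 67.4% of 141 lower, and these differences between shares were not tested. The STAT-type element TTCNNNGAA, searched in the same windows, was in 5.54% of the higher, 7.61% of the lower and 6.43% of all windows. A kB-type element, GGGA and TTCC with any 2 letters between, was in 2.11%, 1.12% and 1.13% in the same order. The sterol-type element TCACNCCAC, some forms of which contain a CACCC box, was in 1.32%, 0.895% and 1.06% in the same order. None of these elements was in the 4 windows shown. These counts describe letters in a short window and say nothing of binding.

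Most pro-inflammatory cytokine genes were higher in KO cells. Of 17 measured members of that list, 11 were higher in KO cells and 0 lower (median difference 1.84, against -0.0182 for all genes). Il6, the gene of a fever and acute-phase inducing cytokine, had 5375, 5665 and 5895 in KO arrays, against 837, 288 and 1473 in WT arrays (2.99 ± 0.38, adjusted p = 0.000178). The KO arrays sat within a narrow range, while the WT arrays ran over a 5-fold one. Tnf, an early macrophage cytokine gene, had 3451, 4981 and 4952 in KO arrays, against 1742, 776 and 1620.4 in WT arrays (1.76 ± 0.32, adjusted p = 0.00317). Il1a, which encodes an alarmin of the IL-1 family, had 3393, 3769.7 and 3409 in KO arrays, against 756, 536 and 1886 in WT arrays (1.94 ± 0.36, adjusted p = 0.00342). Il18, whose product drives interferon-gamma release, had 2581, 2354 and 3150.3 in KO arrays, against 1075, 825 and 1345 in WT arrays (1.34 ± 0.16, adjusted p = 0.000141). Il1b, the gene of the inflammasome-processed IL-1, had 7726, 8323 and 8127 in KO arrays, against 5186, 4151 and 5787 in WT arrays, and did not pass (0.69 ± 0.37, adjusted p = 0.34). Its KO arrays lay above its WT arrays without overlap, by less than the fit could separate from its estimate of spread. That estimate was pooled over the arrays of all groups, those at 0 h and after vehicle included. The missing call therefore does not show that the LPS arrays of Il1b were too variable. Ifnb1, the gene of interferon beta, stayed at or near the nonspecific level with 9.05, 25.1 and 12.1 in KO arrays, against 7.10, 14.3 and 9.30 in WT arrays (adjusted p = 0.367). In the 2 fits of the 6 LPS arrays alone 5 and 7 of the 17 passed, and under the other alternatives, those that leave out 1 array included, 11 or 12 did.

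Subunit genes of IL-12 and IL-23, which steer T cells towards Th1 and Th17 responses, were higher in KO cells. Of 4 measured members of the family 3 rose and 0 fell. Il12a, the gene of the p35 subunit particular to IL-12, had 95.6, 149 and 153 in KO arrays, against 5.93, 8.17 and 16.3 in WT arrays (3.81 ± 0.28, adjusted p = 6.6e-07). Its difference was 2.83 once values were raised to the nonspecific level. Il23a, the gene of the p19 subunit of IL-23, had 36.6, 97.8 and 119 in KO arrays, against 7.23, 4.37 and 7.17 in WT arrays, at least 4.25-fold higher (adjusted p = 6.57e-06). Il12b, the gene of the p40 subunit shared by both, had 2139, 1722 and 2207 in KO arrays, against 847, 269 and 781 in WT arrays (1.84 ± 0.32, adjusted p = 0.0026). Il23a lay above the nonspecific level in 0 of 3 WT arrays and Il12a in 1, whereas Il12b was above it in every array of both genotypes. Inhba, which encodes the activin A subunit, had 606, 400.0 and 536 in KO arrays, against 85.5, 21.2 and 69.2 in WT arrays (3.34 ± 0.39, adjusted p = 8.11e-05).

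Among 11 colony-stimulating factors and receptors, 4 ligands were higher in KO cells and 1 receptor lower. Beside Csf2, Csf3, the gene of the neutrophil factor G-CSF, had 235, 179 and 252 in KO arrays, against 35.98, 20.1 and 76.8 in WT arrays (2.52 ± 0.31, adjusted p = 0.000144). Csf1, the gene of M-CSF itself, had 249.6, 449.8 and 389.6 in KO arrays, against 99.9, 53.8 and 93.9 in WT arrays (2.15 ± 0.24, adjusted p = 6.19e-05). Csf3r, the receptor gene of G-CSF, had 177, 107 and 107 in KO arrays, against 577, 481 and 372 in WT arrays and was lower (-1.89 ± 0.35, adjusted p = 0.00356). The receptor gene of M-CSF, Csf1r, and the shared beta chain gene of the GM-CSF receptor, Csf2rb, differed by -0.32 ± 0.12 and 0.07 ± 0.14 and did not pass (adjusted p = 0.147 and 0.851). The other ligand was Kitl, the gene of stem cell factor, with 64.7, 155 and 118 in KO arrays, against 72.1, 15.7 and 10.2 in WT arrays. Its WT array 1 reached into the KO range, and its call was lost without WT array 2, WT array 3, KO array 2 or KO array 3 (adjusted p up to 0.0736). Csf3r is also 1 of the neutrophil markers whose sum was lower. Of 9 genes of the IL-6 and LIF family with their receptors 2 were higher, Il6 and Lif, and 1 lower. Il6ra, the IL-6 receptor gene, had 135, 126 and 103 in KO arrays, against 249, 504 and 376 in WT arrays and was lower in KO cells (-1.58 ± 0.22, adjusted p = 0.000339).

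**Figure D4:**
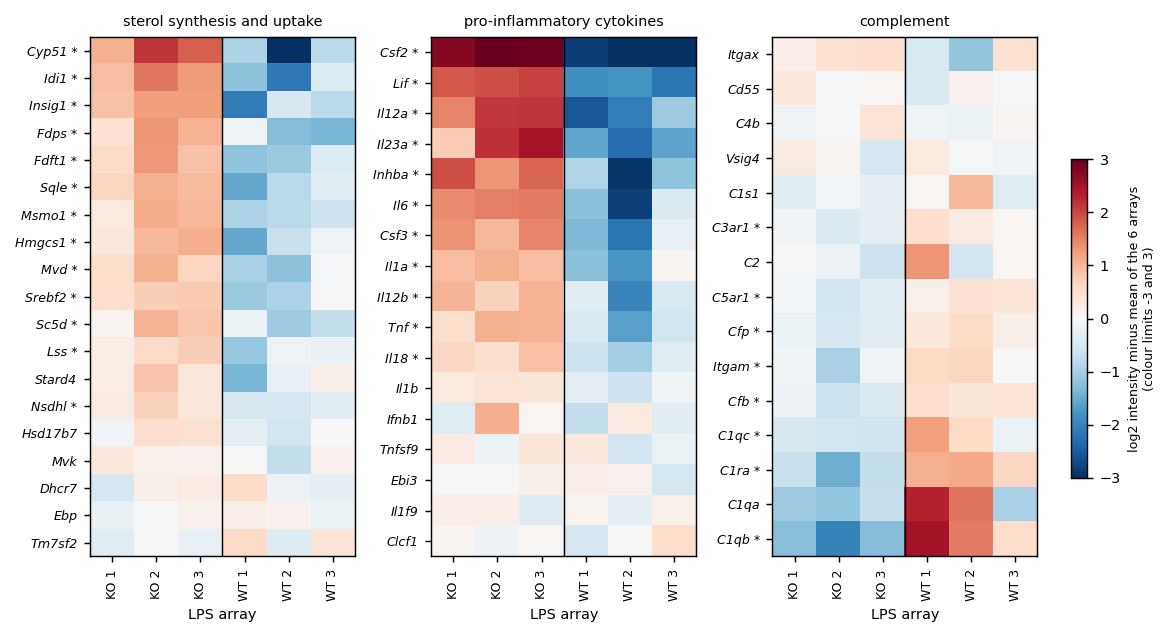
Log2 intensity of each LPS array minus the mean of the 6 arrays (colour, limits -3 and 3), KO arrays left of WT arrays, for all measured members of the sterol (19), pro-inflammatory cytokine (17) and complement (15) lists, ordered by the KO minus WT difference. An asterisk marks adjusted p under 0.05, which 13, 11 and 8 members reached.

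Chemokine genes with a call were mostly higher in KO cells. Of 15 CC and CX3C chemokine genes 5 were higher in KO cells and 2 lower, and of 12 CXC chemokine genes 2 were higher and 0 lower. Without WT array 2 or KO array 3 the CC and CX3C count was 3 higher. Ccl22, the gene of a ligand of CCR4 that draws regulatory and Th2 cells, had 218, 207 and 264 in KO arrays, against 18.97, 34.9 and 22.9 in WT arrays (3.21 ± 0.20, adjusted p = 1.1e-07). Ccl17, the gene of the other CCR4 ligand, had 359.7, 347 and 375 in KO arrays, against 73.1, 66.9 and 97.03 in WT arrays (2.21 ± 0.16, adjusted p = 8.11e-07). Neither gene overlapped between the groups. Cx3cl1, which encodes the membrane-bound chemokine fractalkine, had 135, 95.2 and 145 in KO arrays, against 29.6, 16.9 and 28.98 in WT arrays (2.33 ± 0.20, adjusted p = 5.02e-06). Cxcl5, the gene of a neutrophil attractant, had 153, 225 and 224 in KO arrays, against 47.04, 21.4 and 53.2 in WT arrays (2.39 ± 0.28, adjusted p = 7.72e-05). Ppbp, another gene of that group, had 89.97, 73.1 and 101 in KO arrays, against 34.7, 41.3 and 54.1 in WT arrays (adjusted p = 0.00708). No array of 1 genotype reached the other in these 3 genes. Ccl8, a monocyte chemokine gene, was lower, with 59.3, 24.6 and 32.6 in KO arrays, against 330.0, 218 and 65.7 in WT arrays (-2.21 ± 0.43, adjusted p = 0.00506). The interferon-driven Cxcl10 gene had 1858, 2334 and 2258 in KO arrays, against 2068, 494 and 726 in WT arrays, with WT array 1 inside the KO range (adjusted p = 0.117). Cxcl1, a further neutrophil attractant gene, had 5305, 5632 and 5599.9 in KO arrays, against 1248, 1618 and 2929 in WT arrays and, although its groups did not overlap, did not pass (1.61 ± 0.49, adjusted p = 0.064). The rises of Ccl2 (1.46 ± 0.36) and Ccl4 (0.93 ± 0.22) and the fall of Ccl6 (-0.84 ± 0.22) were each lost without WT array 2, without KO array 3 and without further single arrays (adjusted p up to 0.114, 0.0813 and 0.16).

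GM-CSF is known to signal through the transcription factor STAT5. Of 17 measured STAT5 target genes, 5 were higher and 1 lower (median 0.049). Cish, a feedback inhibitor of cytokine receptors, had 257, 274 and 266 in KO arrays, against 46.7, 30.1 and 28.03 in WT arrays (2.96 ± 0.17, adjusted p = 4.21e-08). Socs2, a related inhibitor gene, had 114, 125 and 130.1 in KO arrays, against 12.4, 11.3 and 41.7 in WT arrays (2.77 ± 0.37, adjusted p = 0.000259). The WT arrays of Socs2 included 1, array 3, well above the other 2, and the groups did not overlap. The chemokine genes Ccl22 and Ccl17 above belong to the same list. Bcl6, a transcriptional repressor gene that STAT5 is known to silence, had 101, 94.7 and 62.1 in KO arrays, against 473, 334 and 309 in WT arrays and was lower (-2.12 ± 0.19, adjusted p = 6.98e-06). The other higher member, the kinase gene Pim1 (0.82 ± 0.21), lost its call without any 1 of WT arrays 2 and 3 and the KO arrays (adjusted p up to 0.139). Of 22 inducible inhibitors of inflammation, which include Cish and Socs2, 3 were higher and 1 lower. Zc3h12d, which encodes an RNase of the regnase family, was lower with 124, 58.1 and 101 in KO arrays, against 455, 407 and 256 in WT arrays (-2.01 ± 0.24, adjusted p = 0.000118). Zc3h12a, the gene of regnase-1, was higher with 538, 614 and 736 in KO arrays, against 271, 273 and 502 in WT arrays (0.90 ± 0.20, adjusted p = 0.0128), a call lost without WT array 2 or KO array 3 (adjusted p up to 0.0652).

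Of 21 immediate early genes 4 were higher, Nr4a3 among them, and 2 lower. The higher count was 2 without WT array 2 or KO array 2, 8 without WT array 3 and 10 with the deposited values, and the lower count ran from 0 with equal hybridisation controls to 3. Nr4a2, the gene of the nuclear receptor Nurr1, had 57.5, 57.8 and 52.3 in KO arrays, against 21.8, 16.2 and 23.7 in WT arrays (1.46 ± 0.14, adjusted p = 1.59e-05). Egr2, the gene of an early growth response factor, had 63.3, 120.0 and 114 in KO arrays, against 22.4, 13.04 and 43.4 in WT arrays (2.03 ± 0.44, adjusted p = 0.0117), and its call was lost without WT array 2 or KO array 2 (adjusted p up to 0.0619). Klf10, another member of the KLF family, was lower with 137, 59.2 and 96.5 in KO arrays, against 174, 302 and 215 in WT arrays (-1.29 ± 0.25, adjusted p = 0.00499). Klf10 and Klf3, the deleted gene itself, were the 2 of 17 measured KLF and SP genes that passed. Fos, a component of the AP-1 factor, was lower with 856, 575 and 656 in KO arrays, against 1077, 1959 and 2052 in WT arrays (-1.25 ± 0.29, adjusted p = 0.0171), without a call when WT array 2, WT array 3, KO array 2 or KO array 3 was left out (adjusted p up to 0.0773). Of 18 growth factors and genes driven by ERK, a MAP kinase, 5 were higher and 0 lower. Plaur, the urokinase receptor gene, had 969, 1121 and 1108 in KO arrays, against 189, 140.5 and 449 in WT arrays (2.22 ± 0.36, adjusted p = 0.00134). The KO arrays of Plaur lay close together and the WT arrays spread. Spry1, a feedback inhibitor gene of receptor tyrosine kinases, had 41.1, 71.1 and 50.8 in KO arrays, against 18.2, 18.3 and 27.2 in WT arrays (1.34 ± 0.19, adjusted p = 0.000441). The epidermal growth factor family gene Ereg lay near the nonspecific level with 20.1, 20.99 and 12.2 in KO arrays, against 6.67, 8.43 and 8.13 in WT arrays (at least 1.03-fold, adjusted p = 0.00298), and did not pass once values were raised to that level.

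Signalling components downstream of the LPS receptor had smaller differences. Of 13 NF-kB subunits and IkB proteins 4 were higher and 0 lower (30.8%, against 5.97% of all genes). Of 25 LPS receptor and TLR signalling genes 3 were higher and 0 lower (12%). The NF-kB count was 2 without WT array 2 or KO array 2, and 0 and 1 in the 2 fits of the 6 LPS arrays alone. Rel, the gene of the c-Rel subunit, had 185, 222 and 262 in KO arrays, against 148, 78.8 and 128 in WT arrays (0.95 ± 0.20, adjusted p = 0.00943). Nfkbiz, which encodes IkB zeta, a coactivator of secondary response genes such as Il6, had 1168, 1139 and 1042 in KO arrays, against 615, 523 and 643 in WT arrays (0.91 ± 0.21, adjusted p = 0.015), a call lost without WT array 2 or KO array 2 (adjusted p up to 0.065). Ikbkb, the gene of an IkB kinase subunit, had 879, 1030.0 and 1050.4 in KO arrays, against 524, 690.5 and 719 in WT arrays (0.62 ± 0.12, adjusted p = 0.00656), and did not pass when the mean of all its probe sets was used. The 3 receptor pathway genes, Tlr2, Ticam1 and Irak2, differed by 0.69 ± 0.18, 0.53 ± 0.13 and 0.50 ± 0.12, and without KO array 2 none of the list passed (adjusted p up to 0.103, 0.102 and 0.0839 over the arrays left out).

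Interferon-driven genes belong to the other arm downstream of TLR4, and the lists of them counted next held no call. None of 30 type I interferon-stimulated genes passed in the limma fit (0 higher and 2 lower at an unadjusted p under 0.05; median 0.006), nor did any of 10 guanylate-binding proteins and IRG GTPases (1 higher and 0 lower unadjusted; median 0.338). Without WT array 1, however, 3 of these 10 were higher. The differences of the latter list ran from -0.555 to 0.603. Nos2, the gene of inducible nitric oxide synthase, had 107, 100.4 and 108 in KO arrays, against 276, 79.1 and 145 in WT arrays, with the KO arrays inside the WT range (-0.48 ± 0.31, adjusted p = 0.439). Counts were likewise 0 for 12 genes of MHC class I and antigen processing (0 higher and 1 lower unadjusted), 31 of the respiratory chain and TCA cycle (3 and 0), 28 of mitosis (1 and 0), 9 of NADPH oxidase and superoxide handling (1 and 2) and 13 KLF3 cofactors (1 and 3). With 5.97% of all genes called, a short list can hold no call without standing apart from other genes. The 8 galectin genes had 0 and 0, among them Lgals3, known as a KLF3 target gene, with 7567, 7319 and 7278 in KO arrays, against 7129.9, 6118 and 6881 in WT arrays (0.14 ± 0.10, adjusted p = 0.48). Of 5 measured genes known as KLF3 targets 0 were higher and 1 lower, Klf3 itself. As Klf3 is the deleted gene, its fall was given by the genotype and tells nothing of targets, and no other member passed.

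**Figure D5:**
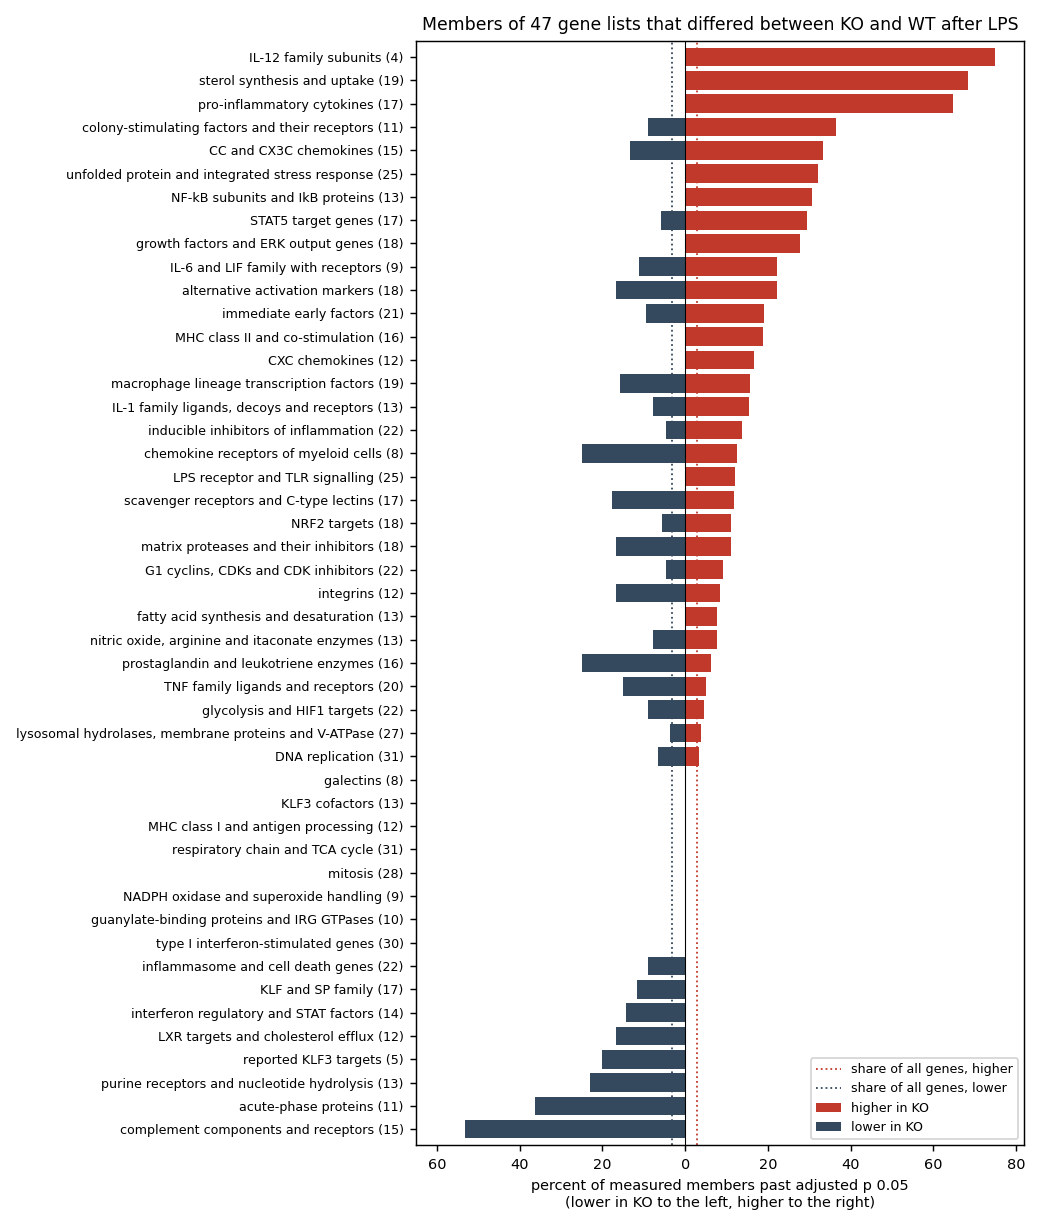
Percent of the measured members (number in parentheses) of 47 gene lists that passed adjusted p 0.05 after LPS, lower in KO cells to the left and higher to the right. Dotted lines are the shares over all 17097 genes, 3.15% lower and 2.82% higher, and the complement list reaches farthest to the left. Klf3, the deleted gene, is among the lower KLF and SP genes and is the only lower gene of the reported KLF3 targets.

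Most measured genes of cholesterol synthesis and uptake were higher in KO cells. Of 19 measured sterol synthesis and uptake genes 13 were higher and 0 lower (median 1.36). Those that did not pass were Stard4, Hsd17b7, Mvk, Dhcr7, Ebp and Tm7sf2, and the lowest difference in the list was -0.383. Of the early steps, Hmgcs1, the gene of HMG-CoA synthase, had 50.2, 79.04 and 85.4 in KO arrays, against 14.02, 25.3 and 36.4 in WT arrays (1.57 ± 0.30, adjusted p = 0.00481). Mvd, the gene of mevalonate diphosphate decarboxylase, had 127, 185 and 136 in KO arrays, against 45.05, 37.7 and 85.1 in WT arrays (1.49 ± 0.30, adjusted p = 0.00667). Idi1, which makes the second isoprenoid unit, had 350.0, 555 and 448 in KO arrays, against 78.8, 41.7 and 139 in WT arrays (2.52 ± 0.32, adjusted p = 0.000187). Each of these genes was brighter in every KO array than in any WT array, and so were those that follow. Fdps, the farnesyl diphosphate synthase gene, had 216, 403 and 332 in KO arrays, against 145, 65.02 and 61.96 in WT arrays (1.88 ± 0.32, adjusted p = 0.00226). Fdft1, the squalene synthase gene, had 285, 469 and 352 in KO arrays, against 82.9, 88.2 and 144 in WT arrays (1.83 ± 0.28, adjusted p = 0.00093). Sqle, the squalene epoxidase gene, had 401, 539 and 498 in KO arrays, against 88.9, 148 and 208 in WT arrays (1.77 ± 0.31, adjusted p = 0.00236). The later enzymes demethylate and desaturate the sterol ring. Cyp51, the lanosterol demethylase gene, had 228, 479.5 and 375 in KO arrays, against 56.2, 11.5 and 61.6 in WT arrays (3.34 ± 0.48, adjusted p = 0.000523). Msmo1, a methylsterol oxidase gene, had 436, 779 and 709 in KO arrays, against 185, 203 and 233 in WT arrays (1.59 ± 0.22, adjusted p = 0.000339). Sc5d, a sterol desaturase gene, had 228, 436 and 376 in KO arrays, against 185, 102 and 128 in WT arrays (adjusted p = 0.00261). KO array 1 was the dimmest KO array for all 9 of these genes.

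Regulators of the sterol pathway were among the 13. Srebf2, the gene of the transcription factor SREBP2 that switches the pathway on, had 378, 447 and 462 in KO arrays, against 124, 139 and 269 in WT arrays (1.36 ± 0.21, adjusted p = 0.00111). Insig1, which holds SREBP in the endoplasmic reticulum and is itself a target, had 412, 535 and 531 in KO arrays, against 51.97, 160.2 and 127 in WT arrays (2.26 ± 0.30, adjusted p = 0.000261). After vehicle, Cyp51 averaged 206 in KO and 173 in WT arrays (difference 0.17). Insig1 averaged 325 in KO and 323 in WT arrays after vehicle (-0.02), and Msmo1 748 in KO and 794 in WT arrays (-0.13). The change from vehicle to LPS within a genotype was not tested. The interaction contrast passed for 6 of the 19 sterol genes, among them Cyp51, Insig1 and Msmo1, at 3.16, 2.28 and 1.72. It did not pass for the rest, Hmgcs1, Mvd, Fdps, Sqle and Sc5d included. Of 13 fatty acid synthesis genes 1 was higher (7.69%, against 5.97% of all genes). This was Fasn, the fatty acid synthase gene (1.17 ± 0.27), and its call was lost without KO array 2 (adjusted p = 0.0713). Of 12 LXR targets and cholesterol efflux genes 0 were higher and 2 lower (16.7%). Pltp, which transfers phospholipids to lipoproteins, had 233, 152 and 188 in KO arrays, against 1120.0, 1692 and 789 in WT arrays (-2.60 ± 0.45, adjusted p = 0.00221). The efflux genes Abcg1 and Apoe differed by -1.47 ± 0.69 and -0.55 ± 0.28 and did not pass (adjusted p = 0.263 and 0.305), and for Abcg1 WT array 3 lay under every KO array. In the 2 fits of the 6 LPS arrays alone 2 and 5 of the 19 sterol genes passed, and under the other alternatives 11 to 15 did.

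Of 25 genes of the unfolded protein and integrated stress responses, 8 were higher and 0 lower (median 0.43). Dnajb9, an endoplasmic reticulum cochaperone gene, had 671, 640.3 and 844 in KO arrays, against 411, 404 and 371 in WT arrays (0.85 ± 0.13, adjusted p = 0.000948). Herpud1, which takes part in the degradation of misfolded proteins, had 258, 294 and 240.2 in KO arrays, against 157, 161 and 91.4 in WT arrays (0.99 ± 0.18, adjusted p = 0.00356). Ppp1r15a, the gene of a phosphatase subunit that restores translation, had 732, 970.2 and 752 in KO arrays, against 533, 284 and 373 in WT arrays (1.08 ± 0.21, adjusted p = 0.00603). The groups of these 3 genes did not overlap. In the 2 fits of the 6 LPS arrays alone 0 of the 25 passed, and under the other alternatives the count ran from 4, with array weights or without KO array 1 or KO array 3, to 15 in another scaling. Of 18 NRF2 targets 2 were higher and 1 lower (16.7%, against 5.97% of all genes). Slc7a11, the cystine transporter gene, had 1033, 1481 and 1300.2 in KO arrays, against 458, 252 and 697 in WT arrays (1.54 ± 0.26, adjusted p = 0.00201). Nqo1, a quinone reductase gene, had 112, 139 and 123 in KO arrays, against 72.2, 57.8 and 66.7 in WT arrays (0.93 ± 0.19, adjusted p = 0.00806), and its vehicle difference was as large, 0.94.

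Acute-phase protein genes were among those lower in KO cells. Of 11 measured genes 4 were lower and 0 higher. Saa1, the gene of serum amyloid A1, had 6.45, 4.87 and 3.70 in KO arrays, against 209.8, 168 and 37.5 in WT arrays, at least 6.52-fold lower in KO cells (-4.49 ± 0.43, adjusted p = 1.47e-05). Saa2, its neighbouring family member with a similar sequence, had 8.79, 9.38 and 8.93 in KO arrays, against 129, 105 and 14.8 in WT arrays (at least 3.48-fold, adjusted p = 0.0053), and a probe set of either may read transcripts of both. Hp, the gene of the hemoglobin scavenger haptoglobin, had 618, 404 and 457 in KO arrays, against 2633, 4350.2 and 4133 in WT arrays (-2.90 ± 0.23, adjusted p = 1.92e-06). No KO array lay above the nonspecific level for Saa1 or Saa2, whereas Hp was above it in all KO arrays. Saa3, the macrophage form of serum amyloid A, had 9061, 7506 and 8461 in KO arrays, against 9239, 9536 and 9239 in WT arrays and did not pass (-0.17 ± 0.32, adjusted p = 0.845), nor did Lcn2, the gene of the iron-sequestering lipocalin, with 3594, 2056 and 2323 in KO arrays, against 5359, 4837 and 4022 in WT arrays (-0.87 ± 0.25, adjusted p = 0.056). The other lower gene, Cp, which encodes ceruloplasmin (-1.14 ± 0.26), lost its call without WT array 2, KO array 2 or KO array 3 (adjusted p up to 0.0847).

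Complement genes that passed were all lower in KO cells. Of 15 measured components and receptors 8 were lower and 0 higher (median -0.65). C1qb, a chain of the recognition molecule C1q, had 58.98, 35.3 and 58.1 in KO arrays, against 799.5, 414 and 205 in WT arrays (-3.04 ± 0.49, adjusted p = 0.00136). C1qa, another chain, had 54.7, 52.5 and 71.99 in KO arrays, against 579, 358 and 59.1 in WT arrays, with WT array 3 within the KO range, and did not pass (-1.96 ± 0.58, adjusted p = 0.0571). C1qc had 351, 332 and 325 in KO arrays, against 1154, 745 and 429 in WT arrays (-1.09 ± 0.27, adjusted p = 0.0216), which was lost without WT array 1, WT array 2, KO array 2 or KO array 3 (adjusted p up to 0.068). C1ra, a protease of the C1 complex, had 58.9, 34.4 and 57.6 in KO arrays, against 198, 207 and 146 in WT arrays (-1.89 ± 0.29, adjusted p = 0.000888), and C1rb, its close paralog outside the list, had 9.35, 6.37 and 8.11 in KO arrays, against 35.2, 94.4 and 27.3 in WT arrays, at least 2.67-fold lower (adjusted p = 0.00021). Transcripts of these paralogs may bind the same probes. Cfp, the gene of properdin, had 1399.8, 1135 and 1261 in KO arrays, against 1977, 2338 and 1794 in WT arrays (-0.68 ± 0.12, adjusted p = 0.00334). After vehicle, where no gene passed, C1qb, C1qc and C1ra differed by -1.36, -0.87 and -0.74. With the 3 scalings that do not equalize the whole distribution 2 or 3 of the 15 were lower, and Cfb, Cfp, C3ar1, C5ar1, Itgam and C1qc lost their calls under them. Without KO array 2 the count was 3. The summed macrophage, monocyte and neutrophil markers were lower in KO arrays too, as given above.

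Lectin genes of the macrophage surface that passed went in both directions. Clec10a, a galactose-binding lectin gene, had 42.8, 19.1 and 11.4 in KO arrays, against 421, 161 and 80.6 in WT arrays (-3.07 ± 0.58, adjusted p = 0.00431). Mrc1, the mannose receptor gene, had 701, 549 and 621 in KO arrays, against 1344, 1213 and 1463 in WT arrays (-1.11 ± 0.17, adjusted p = 0.00109). Siglec1, the gene of sialoadhesin, had 82.9, 39.8 and 58.8 in KO arrays, against 209, 260.2 and 219 in WT arrays (-1.98 ± 0.24, adjusted p = 0.000115). These groups did not overlap, and for Clec10a the difference after vehicle was -1.65. In contrast Clec4n, the gene of the fungal receptor Dectin-2, was higher with 1707, 2082 and 1719 in KO arrays, against 746, 716 and 794 in WT arrays (1.28 ± 0.31, adjusted p = 0.0226), a call lost without WT array 2, KO array 2 or KO array 3 (adjusted p up to 0.0873). Of 17 scavenger receptor and C-type lectin genes, a list that does not hold Clec10a, 2 were higher and 3 lower. Not all of these are named here. Without WT array 2, KO array 2 or KO array 3 none of that list was higher. Of 18 alternative activation markers 4 were higher, 3 of them also STAT5 targets, and 3 lower. Arg1, the arginase gene of that program, had 26.5, 10.6 and 16.6 in KO arrays, against 26.8, 321 and 203 in WT arrays (-2.85 ± 0.63, adjusted p = 0.0125). WT array 1 stood next to the highest KO array for Arg1, and the call was lost without WT array 2 or KO array 2 (adjusted p up to 0.0636). Cd5l, a macrophage apoptosis inhibitor gene, had 46.3, 21.5 and 30.6 in KO arrays, against 173, 279.9 and 105 in WT arrays (-2.46 ± 0.47, adjusted p = 0.0048).

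The other genes with the most negative KO minus WT differences belonged to no single class. Ifitm6, of the interferon-induced transmembrane protein family, had 140.1, 9.18 and 102 in KO arrays, against 679, 754 and 359 in WT arrays (-3.48 ± 0.73, adjusted p = 0.00871). KO array 2 lay under the nonspecific level for Ifitm6 and the other KO arrays did not. Cacna1d, a calcium channel subunit gene, had 28.7, 17.6 and 34.1 in KO arrays, against 147, 403 and 184 in WT arrays (-3.10 ± 0.32, adjusted p = 3.44e-05). Gab3, the gene of a docking protein in M-CSF receptor signalling, had 11.3, 8.75 and 18.96 in KO arrays, against 56.7, 69.5 and 68.96 in WT arrays (-2.39 ± 0.23, adjusted p = 1.54e-05). The difference of Gab3 was -1.88 once values were raised to the nonspecific level. Zfp618, a zinc finger gene, had 26.5, 13.3 and 23.6 in KO arrays, against 137, 120.0 and 77.8 in WT arrays (adjusted p = 0.000179). The WT arrays of these 3 genes all lay above the nonspecific level. Wnt6, a Wnt ligand gene, had 11.3, 6.11 and 9.24 in KO arrays, against 39.1, 52.8 and 42.01 in WT arrays, at least 2.63-fold lower (adjusted p = 4.8e-05). Of the genes with the lowest p among those that fell, Mtss1, which encodes a membrane-bending protein, had 113, 102 and 101 in KO arrays, against 276, 246 and 284 in WT arrays (-1.35 ± 0.11, adjusted p = 4.35e-06). Nek6, a mitotic kinase gene, had 275, 212 and 247 in KO arrays, against 709.6, 808 and 626 in WT arrays (-1.55 ± 0.13, adjusted p = 5.02e-06). B4galt6, a lactosylceramide synthase gene, had 388, 325 and 348 in KO arrays, against 1065, 1298 and 824 in WT arrays (-1.57 ± 0.14, adjusted p = 6.98e-06). No array of these genes overlapped between the groups.

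Of 18 matrix proteases and their inhibitors 2 were higher, Adamts4 among them, and 3 lower, with 1 lower without WT array 2. Timp1, the gene of a metalloprotease inhibitor, had 80.01, 54.3 and 41.4 in KO arrays, against 204, 1106 and 357 in WT arrays (-2.94 ± 0.42, adjusted p = 0.000499). Mmp9, the gelatinase B gene, had 49.3, 32.3 and 49.9 in KO arrays, against 79.1, 338 and 269 in WT arrays (-2.17 ± 0.47, adjusted p = 0.011). Mmp9 lost its call without WT array 2 or KO array 2 (adjusted p up to 0.0597). Of 16 prostaglandin and leukotriene genes 1 was higher and 4 lower. The lower count was 1 without WT array 2 or KO array 2, 2 without KO array 3, and 0 to 2 under the other scalings. Ptgs2, the inducible cyclooxygenase gene, had 4899, 5477 and 5508 in KO arrays, against 1827, 681 and 2374 in WT arrays (1.88 ± 0.48, adjusted p = 0.0297). Ptger4, the gene of a prostaglandin E2 receptor, had 241, 207 and 275 in KO arrays, against 534, 650.2 and 500.3 in WT arrays (-1.22 ± 0.17, adjusted p = 0.000399). The Ptgs2 call was lost without WT array 2 or any 1 KO array (adjusted p up to 0.132). Among 22 inflammasome and cell death genes 0 were higher and 2 lower (9.09%, against 5.97% of all genes). Pycard, the gene of the inflammasome adaptor ASC, had 522, 419 and 416 in KO arrays, against 1009, 1469 and 1001 in WT arrays (-1.34 ± 0.15, adjusted p = 6.01e-05). Of 13 purine receptor and nucleotide hydrolysis genes 0 were higher and 3 lower. P2ry6, a UDP receptor gene, had 1319, 1054 and 1156 in KO arrays, against 1879.8, 2169 and 2068 in WT arrays (-0.80 ± 0.11, adjusted p = 0.000247). P2ry12, an ADP receptor gene, had 11.2, 7.93 and 11.7 in KO arrays, against 56.1, 29.3 and 22.5 in WT arrays, at least 1.98-fold lower in KO cells (adjusted p = 0.0014).

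Of 19 macrophage lineage transcription factors 3 were higher and 3 lower. The lower count was 1 without KO array 2, 2 without WT array 1 or WT array 2, and 0 or 1 under the other scalings. Tfec, a MiT family factor gene of macrophages, had 1111, 1348 and 1402 in KO arrays, against 516, 534 and 703 in WT arrays (1.15 ± 0.16, adjusted p = 0.000358). Gfi1, a myeloid repressor gene, had 182, 149.5 and 222 in KO arrays, against 62.5, 88.5 and 129 in WT arrays (1.03 ± 0.21, adjusted p = 0.00706). Irf8, a factor of monocyte and dendritic cell fate, had 543, 500.1 and 435 in KO arrays, against 889, 845 and 781 in WT arrays (-0.77 ± 0.14, adjusted p = 0.00284), a call that ended with the deposited values and with equal hybridisation controls. Of 22 G1 cyclins and cyclin-dependent kinase inhibitors 2 were higher and 1 lower (13.6%, against 5.97% of all genes). Cdkn2b, the gene of the kinase inhibitor p15, had 301, 364 and 336 in KO arrays, against 209, 54.9 and 44.6 in WT arrays (2.06 ± 0.41, adjusted p = 0.00598), with WT array 1 well above the other WT arrays. Cdkn1a, the gene of p21, had 2988, 3376 and 3617 in KO arrays, against 2164, 2066 and 2232 in WT arrays (0.62 ± 0.12, adjusted p = 0.00631). Of 31 DNA replication genes 1 was higher and 2 lower, near the 2.82% and 3.15% of all genes. Gins1, a helicase subunit gene, had 11.7, 7.56 and 9.01 in KO arrays, against 62.9, 47.9 and 37.3 in WT arrays, at least 2.87-fold lower (adjusted p = 9.29e-05). Cdt1, a licensing factor gene, had 190.3, 165 and 147 in KO arrays, against 517, 427 and 276 in WT arrays (-1.24 ± 0.19, adjusted p = 0.000859). Of 22 glycolysis and HIF1 targets 1 was higher and 2 lower (13.6%). Pfkfb3, a glycolytic regulator gene, had 611, 348 and 449.9 in KO arrays, against 1179, 1076 and 1199 in WT arrays (-1.33 ± 0.17, adjusted p = 0.000238). Of 16 MHC class II and co-stimulation genes 3 were higher and 0 lower. Icosl, the gene of the ICOS ligand, had 788, 829 and 861 in KO arrays, against 439, 403 and 446 in WT arrays (0.95 ± 0.11, adjusted p = 0.0001), though the mean of all its probe sets did not pass. With equal hybridisation controls, which put the median of all genes at 0.335, Mrc1, Ptger4, Klf10, Cdt1 and P2ry6 also lost their calls. Other lists also held calls, given here beside the 5.97% of all genes that passed. Of 20 TNF family ligands and receptors 1 was higher and 3 lower (20%). In the same order it was 2 and 1 of 13 in the IL-1 family (23.1%) and 1 and 2 of 8 chemokine receptors (37.5%). For 12 integrins it was 1 and 2 (25%), and for 14 interferon regulatory and STAT factors 0 and 2 (14.3%). For 27 lysosomal genes it was 1 and 1 (7.41%), and for 13 enzymes of nitric oxide, arginine and itaconate 1 and 1 (15.4%). Without WT array 2 or KO array 2 the 3 lower TNF family genes became 1, and without either of these or KO array 3 no chemokine receptor passed.

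Genes near Klf3 on chromosome 5 were counted because a stretch of DNA around a targeted allele can differ between strains. Of 40 measured neighbours, 20 on each side, 2 passed (5%), against 5.97% of all genes and 6.24% of 1058 genes on that chromosome. Both were higher in KO cells. Stim2, the gene of an endoplasmic reticulum calcium sensor, had 466, 492 and 609 in KO arrays, against 239.7, 129 and 214 in WT arrays (1.47 ± 0.18, adjusted p = 0.000144). Its difference after vehicle was near 0. Apbb2, the gene of an amyloid precursor-binding protein, had 955, 916 and 845 in KO arrays, against 586, 436 and 647 in WT arrays (0.72 ± 0.16, adjusted p = 0.0123), and was lost without WT array 2 (adjusted p = 0.0617).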

How the data were processed

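RNA from macrophage cultures was labelled with a 3' amplification kit and measured on Affymetrix HT MG-430 PM arrays, 18 in all. The deposited values are linear intensities per probe set, and the submitters' processing notes name Partek as the authors' tool, with no version and no normalization method given in the sources used here. Per the file headers no further step is recorded. From the deposited intensities, log2 values were taken and quantile-normalized over all 45141 probe sets. The 104 control probe sets were then left out. Of the rest, 28898 had 1 gene in the platform annotation, 551 several and 15588 none. The brightest probe set over all arrays stood for a gene, which left 17097 genes.

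Differences were fitted with limma 3.58.1 in R 4.3.3 on all 18 arrays, with 1 mean for each of 6 groups, and p-values were Benjamini-Hochberg adjusted over all genes with a threshold of 0.05. The nonspecific level of an array is the 95th percentile of 23 control probe sets. Array measures were compared by exact permutation. The method was tested on simulated data with the same spread of a gene in all groups, which does not cover the wider spread of WT LPS arrays. Alternatives covered scaling, filters, probe set choice, arrays in the fit, array weights, blocks by replicate number or plate column, and leaving out each LPS array.

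The members and the 47 gene lists were chosen with earlier results of these data known. Among genes past the threshold whose groups did not overlap and whose brighter group lay above the nonspecific level in all 3 arrays, the text names the 15 with the largest and the 15 with the smallest difference and the 5 with the lowest p in each direction. Of each list it names up to 6 members past the threshold with the largest difference, with values of others in lists of 16 or fewer measured members. Marker genes, Klf3 and its neighbours past the threshold were also named. Msmo1, Hmgcs1, Mvd, Srebf2, Sc5d and Ifnb1 were named outside this rule after their values were seen. The 6 sterol genes that did not pass were also named outside it. The number of arrays limits the precision.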

Additional observations from a re-analysis of the deposited data

Results flagged for a closer look

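The KO minus WT difference after LPS differed from that after vehicle in 189 of 17097 genes (1.11%) by the interaction test of the limma fit. Of these, 183 also passed after LPS. Of the 129 genes named in the report 61 were among the 189, 39 with a positive and 22 with a negative interaction. Most named genes were chosen for their LPS difference, which is part of the interaction. This overlap and the matching signs were therefore largely built in and are no separate evidence. Values are the LPS difference minus the vehicle difference on the log2 scale, and the largest adjusted p among the 61 was 0.0481. Among cytokine and growth factor genes the interaction was Csf2 6.26, Lif 3.76, Il12a 3.68, Il23a 3.82, Inhba 3.72 and Il6 2.69. It was Csf3 2.69, Csf1 2.37, Tnf 2.29 and Il18 1.36 in further genes of these families. Chemokine genes gave Ccl22 3.13, Ccl17 2.12, Cx3cl1 2.18, Cxcl5 2.52 and Ccl4 1.40. Among feedback inhibitors and signalling genes it was Cish 2.80, Socs2 2.56, Spry1 1.35, Ereg 1.32, Nfkbiz 1.39 and Stim2 1.46. Transcription factor genes gave Nr4a3 3.65, Nr4a2 1.38, Egr2 3.13, Tfec 1.31, Klf10 -1.76 and Bcl6 -1.70. The sterol genes gave Cyp51 3.16, Idi1 2.47, Insig1 2.28, Fdft1 1.82, Msmo1 1.72 and Srebf2 1.55. Of other genes that were higher in KO cells after LPS, it was Adamts4 3.62, Lad1 3.20, Shisa3 2.75 and Macc1 2.75. It was Slc7a11 1.99, Cdkn2b 2.71, Cdkn1a 0.864 and Icosl 0.696 in the rest of those.

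Genes lower in KO cells after LPS had negative values. Acute-phase, complement and protease inhibitor genes gave Saa1 -4.56, Hp -2.79, C1rb -2.25 and Timp1 -2.59. Receptor and surface genes gave Il6ra -1.56, P2ry6 -0.88, P2ry12 -1.80, Ly6i -2.70 and Cacna1d -2.73. It was Zfp618 -2.38, Gab3 -1.97, Gins1 -2.78, Wnt6 -2.28 and Cdt1 -1.40 in genes of several classes. The remaining genes gave Mtss1 -1.27, Nek6 -1.60, B4galt6 -1.08, Pycard -1.36, Zc3h12d -2.58 and Pfkfb3 -1.32. Outside the tested genes, 433 of 15588 probe sets with no listed gene passed after LPS in the fit over every probe set (2.78%), 271 higher and 162 lower in KO cells. They entered no comparison of the report.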

How the results depend on the processing

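The 1020 calls after LPS became 596 with equal hybridisation controls and 1724 when every probe set was tested. With only the 6 LPS arrays fitted the count was 89, with 46 higher and 43 lower in KO cells, and with only these normalized and fitted it was 131, with 70 and 61. Leaving out 1 array gave 613 to 1498 calls, lowest without KO array 2, then WT array 2 (660), of which 297 to 746 were higher (lowest without KO array 2, 316 without KO array 3, highest without WT array 1) and 316 to 752 lower (lowest without KO array 2, 328 without WT array 2). Higher calls were 1238 with the deposited values and 916 over every probe set. Lower calls were 235 with arrays shifted to 1 median, 129 with the deposited values, 81 with equal hybridisation controls and 808 over every probe set. The 189 interaction calls became 294 with the deposited values, 122 with equal hybridisation controls, 289 with a filter on dim probe sets, 348 with array weights and 122 to 497 with 1 array left out. The 0 vehicle calls became 2 with the dim filter, with values raised to the nonspecific level, with the mean of all probe sets, with an intensity trend, with the plate column block and with the random block. They became 6 with equal hybridisation controls and over every probe set, 37 with array weights, and 0 to 7 with 1 LPS array left out. The 24 calls at 0 h became 45 with values raised to the nonspecific level, 110 with array weights and 22 to 34 with 1 LPS array left out. The cause of these shifts was not tested. With the replicate number as a block 995 genes passed after LPS, 459 higher and 536 lower, and 183 passed the interaction. Deviations of arrays with the same number correlated at -0.003, -0.017 and -0.034, so the numbers were not taken to pair the arrays. Of 158 genes that passed and were named or belonged to a list, 38 passed under all 19 alternatives. Alox5ap, a lower gene of the prostaglandin list, reversed to 0.0079 with equal hybridisation controls. The 3 lower Klf3 probe sets kept their calls under all alternatives run on them. Precision is limited by 3 arrays per group, and dim genes by the nonspecific signal.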
